A study of Mus musculus with 19 samples.

Results

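Interferon-stimulated genes were followed as a set of 33 genes, chosen by name as genes that cells switch on in response to interferon, among the 46078 genes of the RNA sequencing (RNA-seq) table. All 33 were found in the table and all 33 passed the filter on low counts in every comparison. The 19 libraries were made from mammary glands and mammary tumors of female mice. The study asked how a mutant p53 made in stromal fibroblasts acts on mammary tissue and on tumors driven by MMTV-neu, a transgene that expresses ERBB2 in mammary epithelium. Its methods give a mixed FVB, C57 and BALB/c background for the mice with MMTV-neu. Tumors came from MMTV-neu;Fsp-Cre mice, which have wild type p53 in their fibroblasts (TN, n = 4), and from MMTV-neu;p53wm-R172H/+;Fsp-Cre mice, in which Cre, expressed in fibroblasts by Fsp-Cre, converts a conditional wild type Trp53 allele into the R172H mutant (TNP, n = 4). Glands without malignant lesions came from tumor-bearing mice with wild type fibroblast p53 (MGN, n = 4) or with the MMTV-neu;p53wm-R172H/+;Fsp-Cre genotype (MGNP, n = 4). In MGN, replicate 1 was MMTV-neu;Fsp-Cre and replicates 2 to 4 were MMTV-neu;p53wm-R172H/+ without Cre, so the controls of this group carried either the driver or the unconverted allele. Wild type glands of age-matched mice (MGWT, n = 3) carried none of these alleles. TNP replicates 1 and 2 have library names that differ only by a suffix, and whether they came from 1 mouse is not stated. Ages are not given in the labels. The gene-level table counts mutant and wild type Trp53 reads together and so does not check the conversion.

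Interferons are secreted proteins that alert cells to viruses and to misplaced nucleic acids. Type I and type III interferons bind cell surface receptors whose Janus kinases phosphorylate STAT2, and a complex that holds STAT2 and IRF9 binds the interferon-stimulated response element (ISRE) in the promoters of its target genes, whereas interferon-gamma acts mainly through the gamma-activated site (GAS). The products of the target genes sense viral RNA, degrade RNA or block its translation, and feed back on the pathway. In tumors the same genes can be expressed by cancer cells, by infiltrating leukocytes and by stroma, and bulk tissue RNA does not tell these apart.

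The promoters are shown first, for the sequence elements through which interferon acts. The genes were chosen because interferon induces them, so a high share of these elements follows from the choice and is no separate support. Promoter windows of 300 bases, from 250 before to 50 after the transcription start (RefSeq, GRCm38.p6), were given for 25 of the 33 genes, with 29 windows in all. The 8 genes with no window were Dhx58, Zbp1, Oas2, Usp18, Mx1, Mx2, Rtp4 and Parp14. Each window was searched on both strands for the ISRE core, GAAA repeated after 2 bases of any kind, or TTTC repeated likewise on the other strand, and for GAS, TTC and GAA with 3 bases of any kind between them, which reads the same on both strands. The stretches below surround matches in genes that carry the comparisons, each 5′ to 3′ along the strand of its gene, with matched letters in capitals. They are the ubiquitin-like modifier gene Isg15 (chr4:156200845-156200914, minus strand), Ifit1 (chr19:34640774-34640843, plus strand), Ifit3 (chr19:34583373-34583446, plus strand), Oas1a (chr5:120907526-120907569, minus strand), Rsad2 (chr12:26456533-26456602, minus strand) and, for a GAS match, Irf1 (chr11:53769894-53769962, plus strand).
Isg15: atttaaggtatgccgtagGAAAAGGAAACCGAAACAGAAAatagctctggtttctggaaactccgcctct
Ifit1: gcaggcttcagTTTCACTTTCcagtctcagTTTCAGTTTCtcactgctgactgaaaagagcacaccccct
Ifit3: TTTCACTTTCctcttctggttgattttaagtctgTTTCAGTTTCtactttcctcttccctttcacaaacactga
Oas1a: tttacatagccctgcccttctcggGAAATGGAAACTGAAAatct
Rsad2: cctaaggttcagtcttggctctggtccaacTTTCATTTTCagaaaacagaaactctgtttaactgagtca
Irf1: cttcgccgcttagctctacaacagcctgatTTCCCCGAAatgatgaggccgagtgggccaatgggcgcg

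In Isg15 and Oas1a successive matches overlap, so 1 run of capitals holds several. An ISRE core was found in 14 of the 29 windows (48.3%), against 1131 of all 32851 promoter windows of the same length (3.44%). GAS was found in 7 of the 29 windows (24.1%) and in 8.3% of all windows. Of 22 ISRE core matches, 17 lay before the start and 15 of those within 150 bases of it. The 14 genes with a match were Ddx58, Ifih1, Eif2ak2, Oas1a, Oas3, Stat2, Isg15, Ifit1, Ifit3, Gbp2, Gbp3, Bst2, Ifitm3 and Rsad2. In the remaining 11 genes with a window, Irf7, Irf9, Irf1, Oasl1, Oasl2, Herc6, Ifit2, Cmpk2, Ifi35, Ifi44 and Xaf1, these letters were not in the window searched.

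**Figure D1:**
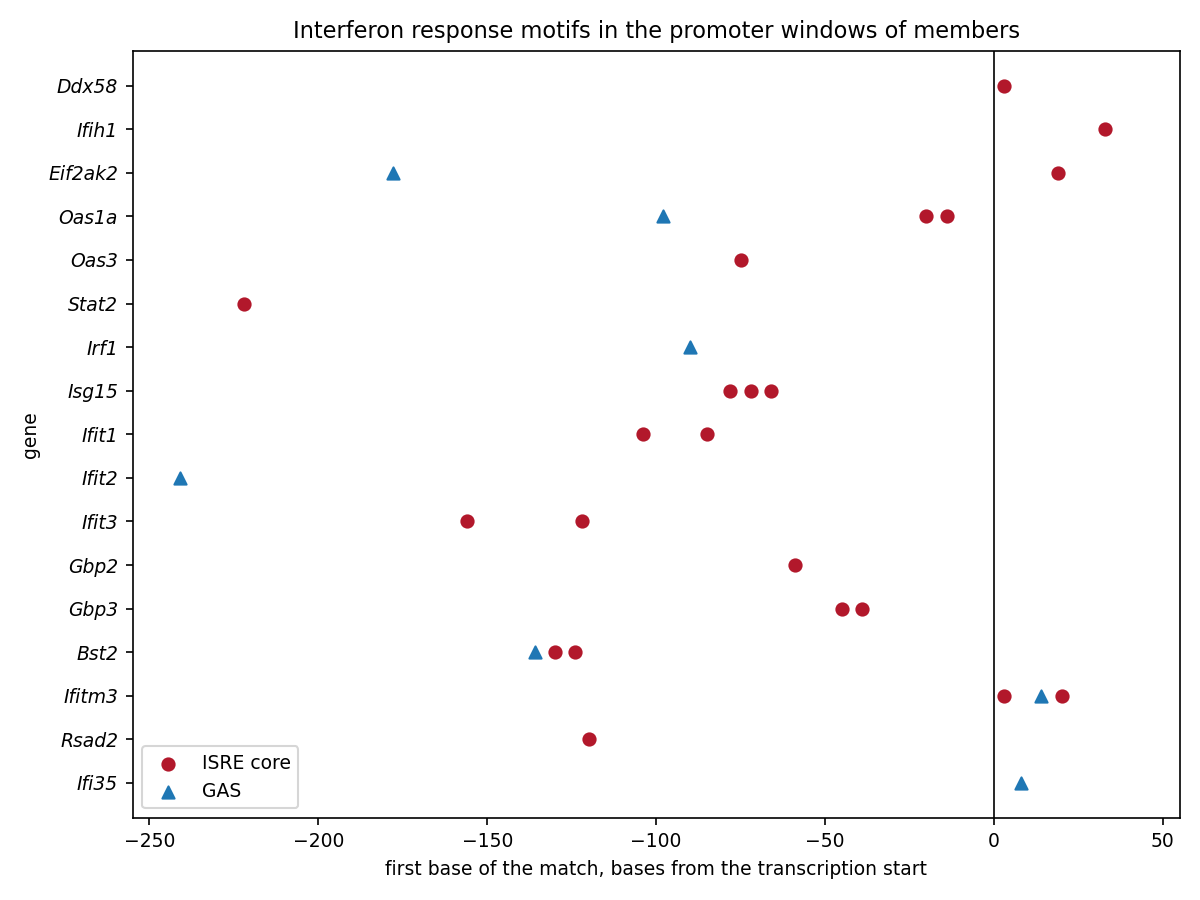
Position of the first base of each ISRE core match (circles) and GAS match (triangles) in bases from the transcription start, for the member genes with a match. The 22 ISRE core matches lie mostly before the start, 15 of them within 150 bases, and Irf1 holds a GAS match at -90 and no ISRE core.

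Recovered read numbers were 20899152 to 27262440 in the 16 MGN, MGNP, TN and TNP libraries, and 54677315 to 62645459 in MGWT. MGWT was thus the deepest group in every library, and depth cannot be told apart from genotype there. Tissue makeup differed between groups in lists of marker genes. The summed normalized count of 8 white adipocyte markers was 1968 to 2875 in MGWT, against 285105 to 390561 in MGN and 137955 to 364040 in MGNP, so the defining genes of mammary fat were nearly absent from the wild type glands. The sum of 14 skeletal muscle markers ranged from 12810 to 3071490 in MGNP and from 165 to 194 in MGWT. The sum of 8 luminal epithelium markers was 90948 to 172704 in TN and 97399 to 131993 in TNP, against 12198 to 24497 in MGN, 8227 to 24704 in MGNP and 72305 to 87669 in MGWT. In such bulk samples, fewer cells of a type and less RNA per cell cannot be told apart.

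The 33 genes together took 0.0821% to 0.0914% of the reads in MGWT, 0.0938% to 0.166% in MGN, 0.0424% to 0.158% in MGNP and 0.122% to 0.135% in TNP. In TN the share was 0.0689% and 0.114% in replicates 1 and 3, and 0.42% and 0.376% in replicates 2 and 4. The group mean of log2 values was highest in TN for 27 genes, in MGN for 3 (Oas2, Gbp2 and Parp14), in MGWT for 2 (Ddx58 and Irf1) and in TNP for Xaf1. It was lowest in MGWT for 24 genes, in MGNP for 6 and in TNP for 3. Per kilobase of exon, the membrane protein gene Ifitm3, whose product restricts virus entry, had the highest level of the set in all 5 groups, from 2332 normalized counts per kilobase in MGNP to 9289 in TN. Oas3 had the lowest in all 5, from 7.05 in MGWT to 65.4 in TN. Irf1 was second to Ifitm3 in MGWT, at 1171 normalized counts per kilobase.

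**Figure D2:**
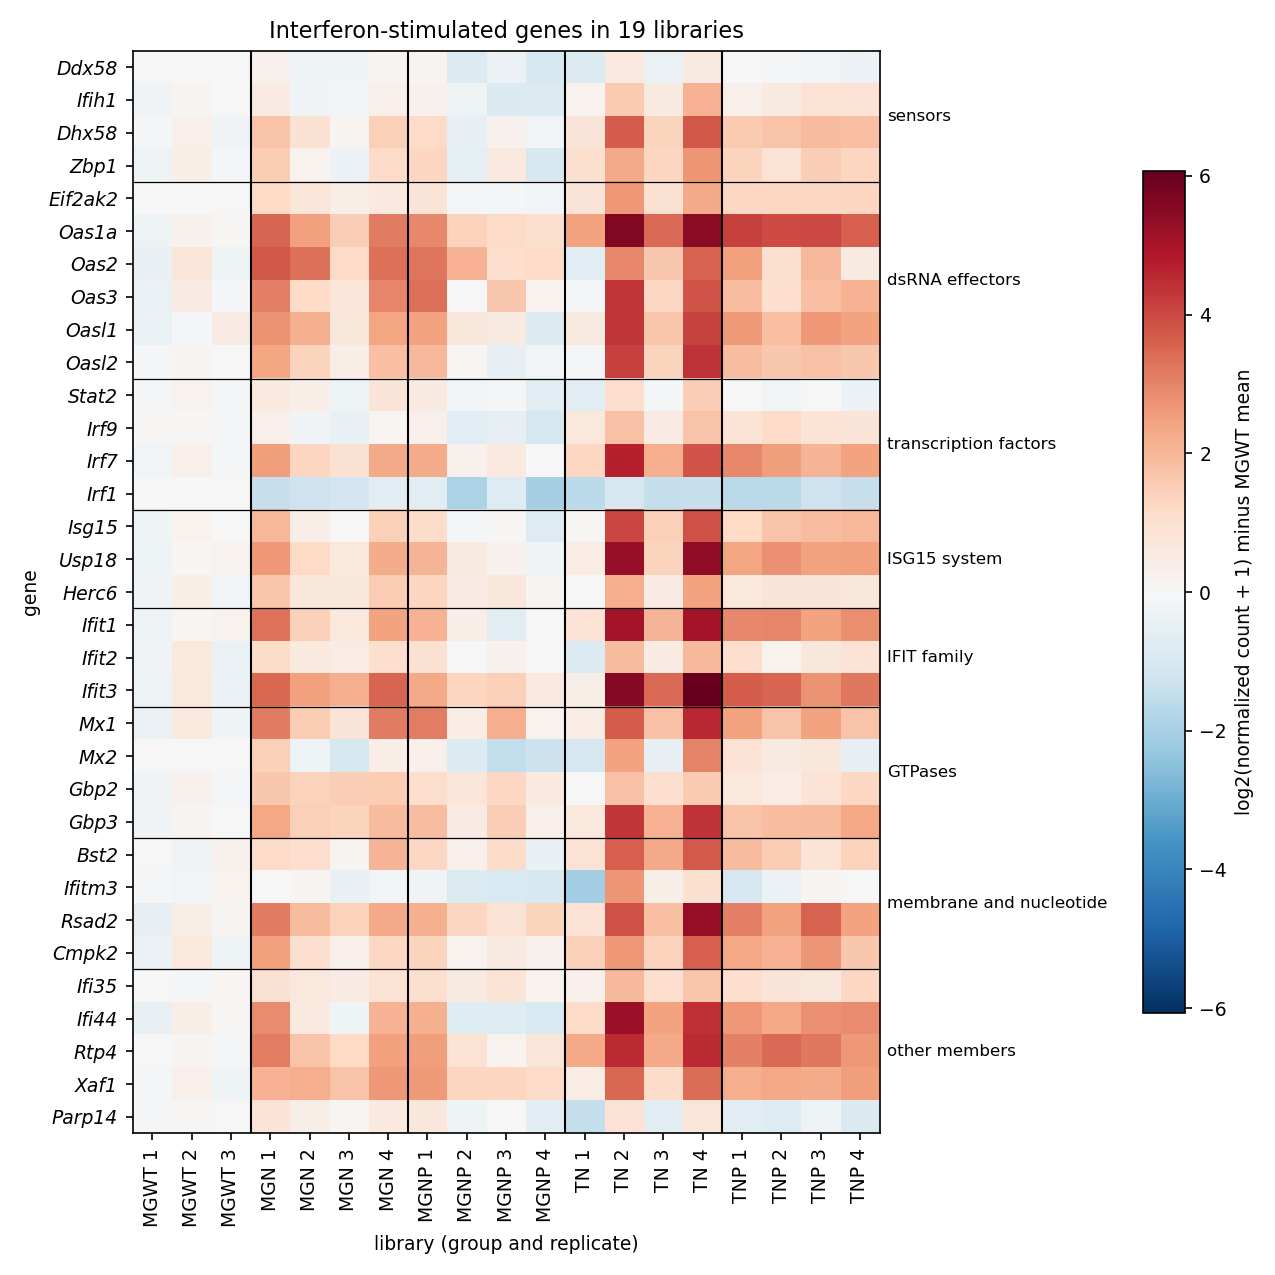
Each row is a gene and each column a library, and the color is log2(normalized count + 1) minus the mean of the 3 MGWT libraries, with lines between groups and between roles. TN replicates 2 and 4 hold the 2 highest TN values for 33 of the 33 genes, MGNP replicate 1 is the highest of its group for 32, and Irf1 is below MGWT in every other library.

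The first question was whether glands of tumor-bearing mice differed from wild type glands. Of the interferon-stimulated genes, 29 of 33 were higher on average in MGN than in MGWT, and Irf1, Ifitm3, Irf9 and Ddx58 were at -1.14, -0.10, -0.05 and -0.02 on the log2 scale. A gene was called when the adjusted p-value (limma, Benjamini-Hochberg over all 19017 genes tested) was under 0.05 and the change at least 2-fold. Of the 33 genes, 18 rose and 1 fell, beside 19.1% of all genes tested called higher and 17.9% called lower. The median log2 fold change was 1.26 over the 33 genes and 0.02 over all genes tested. Values of MGN and MGWT did not overlap for 19 genes that were higher and 1 that was lower, against 31.5% and 29.8% of all genes.

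Ifit3 encodes a protein that binds foreign RNA with its IFIT partners, and lies at chr19:34583531-34588731 (GRCm38, plus strand). Its normalized counts were 41.8, 80.0 and 40.3 in MGWT and 594, 294, 237 and 596 in MGN. Every MGN gland was thus above every MGWT gland, and the log2 fold change was 2.92 ± 0.41 (SE, limma adjusted p = 0.000476, two-sided exact permutation p = 0.0286, the smallest that 4 against 3 can give). Fold changes are on the log2(value + 1) scale, which understates those of low genes.

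The oligoadenylate synthetases, which make a messenger that activates an RNA-degrading enzyme when they bind viral RNA, gave the next largest changes. Oas2 (chr5:120730333-120749853, minus strand) had 49.5, 113 and 55.3 normalized counts in MGWT and 927, 691, 154 and 688 in MGN. Replicate 3 was the lowest MGN gland but still above MGWT, and the log2 fold change was 2.90 ± 0.61 (limma adjusted p = 0.00385, exact permutation p = 0.0571). Oas1a (chr5:120896256-120907521, minus strand) had 42.6, 63.5 and 55.8 in MGWT and 623, 305, 151 and 478 in MGN. The groups again did not overlap, with a log2 fold change of 2.66 ± 0.45 (limma adjusted p = 0.00133, exact permutation p = 0.0571). Oas3, Oasl1 and Oasl2 also rose, so that of the 6 effectors that act on double-stranded RNA only the kinase gene Eif2ak2 was not called, with a log2 fold change of 0.74.

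In the other roles, 2 of 3 IFIT genes rose (Ifit1 by 1.96 and Ifit3), as did 3 of 4 interferon-induced GTPase genes (Mx1 by 2.15, Gbp2 by 1.52 and Gbp3 by 1.77 on the log2 scale). Of the ISG15 system, the deconjugating protease gene Usp18 (1.68) and the ligase gene Herc6 (1.15) rose and Isg15 itself was not called (0.97). Of 4 sensors of foreign nucleic acid, Dhx58 rose (1.08), and Ddx58, which encodes RIG-I, was at -0.02. Of 4 membrane and nucleotide enzyme genes, Rsad2, which encodes viperin, rose by 2.20 and Bst2, which encodes tetherin, by 1.10. Rtp4 (2.13) and the apoptosis-associated factor gene Xaf1 (2.17) rose among the remaining 5.

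Of the 4 transcription factor genes, Irf7, the amplifier of type I interferon production, rose by 1.75, and Irf9 and Stat2 were at -0.05 and 0.37. Irf1 (chr11:53770014-53778374, plus strand), an interferon-gamma responsive factor that is also induced by inflammatory signals, had 4717, 4675 and 4577 normalized counts in MGWT and 1741, 1931, 2085 and 2845 in MGN. Every MGN value was below every MGWT value, and the gene fell by 1.14 on the log2 scale (SE 0.16, limma adjusted p = 0.000582, exact permutation p = 0.0286). Of the 19 calls, 12 were made again in each of the 7 fits that left out a gland, and Bst2 was lost in 6 of them. Fitting all 5 groups together left 9 genes called higher. Markers moved with this comparison: 8 of 8 macrophage markers rose, with summed normalized counts of 3249 to 4290 in MGWT and 18315 to 48755 in MGN, as did 8 of 8 adipocyte and 11 of 14 muscle markers. All 8 luminal and all 6 basal epithelium markers fell, and the part of these lists in the result was not tested.

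Glands with mutant fibroblast p53 were compared with the same wild type glands, so the comparisons of MGN and of MGNP share their controls. In MGNP, 5 genes rose, against a background of 16.4% of all 19065 genes tested, and 1 fell, against 16.2%. The median log2 fold change was 0.55, and 24 of the 33 values were above 0. Groups did not overlap for 8 genes that were higher (26.5% of all genes) and 2 that were lower (27.9%).

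Oas2 had 650, 295, 142 and 151 normalized counts in MGNP, all above the 3 MGWT values, and a log2 fold change of 1.89 ± 0.58 (limma adjusted p = 0.0318, exact permutation p = 0.0571). Oas1a had 406, 144, 120 and 105, also above MGWT throughout, with a log2 fold change of 1.61 ± 0.48 (limma adjusted p = 0.0282, exact permutation p = 0.0286). Xaf1 (chr11:72301629-72313733, plus strand) had 151, 196 and 132 normalized counts in MGWT and 936, 387, 392 and 356 in MGNP. Its log2 fold change was 1.58 ± 0.36 (limma adjusted p = 0.0107, exact permutation p = 0.0286), and replicate 1 stood above the other 3 in each of these genes.

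Ifit3 and Rsad2 rose by 1.40 each on the log2 scale. Irf1 fell by 1.35 (SE 0.36, limma adjusted p = 0.0185, exact permutation p = 0.0571), with 2897, 1228, 2688 and 1147 normalized counts in MGNP. In MGNP replicates 2 and 4, where Irf1 was lowest, the mean log2 value of the 14 muscle markers was 17.02 and 16.33, against 14.12 and 8.94 in replicates 1 and 3. With the mean log2 value of the muscle markers as a covariate, 1 gene was called higher and none lower, and the difference of Irf1 was 0.30 (limma adjusted p = 0.778). That mean was 3.01 to 3.24 in MGWT and 8.94 to 17.02 in MGNP, without overlap. The covariate therefore cannot be told apart from group in this fit, and the part of muscle was not tested. In the same comparison 14 of 14 muscle, 8 of 8 adipocyte and 7 of 8 macrophage markers were called higher, and 8 of 8 luminal and 6 of 6 basal epithelium markers lower. Xaf1 was the gene called in every fit that left out a gland. The count of genes called higher was 1 without MGWT replicate 1 and 2 without MGWT replicate 3, and Irf1 was lost without any 1 of the MGWT glands, whereas 2 genes were called lower without MGNP replicate 1.

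Compared directly, MGNP was below MGN for each of the 33 genes on average, but no gene passed the test. The median log2 difference was -0.65, against -0.02 over all 18563 genes tested, with 0% of all genes called higher and 0% lower by limma. The study, using DESeq2 and an adjusted p-value under 0.05, reported genes both higher and lower in MGNP than in MGN, with Saa1, Saa2 and Thbs4 among the higher. The limma counts thus do not show that the 2 gland groups are alike. For 4 of the 33 the unadjusted p-value was under 0.05, a level that 10.5% of all genes reached. On the recovered reads, edgeR called none of the 33 and DESeq2 called 1, Ifit3, lower, and the share of all genes that DESeq2 called is not given here. The summed normalized count of the 14 muscle markers was 425654, 3071490, 12810 and 1716007 in MGNP replicates 1 to 4, against 390 to 18837 in MGN, although limma called 0 of the 14. With their mean log2 value as a covariate, 0 of the 33 genes were called.

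Gbp2 (chr3:142620602-142638008, plus strand), a guanylate-binding protein gene with a role against intracellular pathogens, had 2305, 1953, 2055 and 2133 normalized counts in MGN and 1545, 1219, 1751 and 1096 in MGNP. It was the gene of the 33 whose groups did not overlap, beside 4.15% of all genes lower and 2.06% higher without overlap, and its log2 difference was -0.61 ± 0.16 (limma adjusted p = 0.327, exact permutation p = 0.0286, the smallest that 4 against 4 can give). Ifit3 had 255, 127, 141 and 77.5 normalized counts in MGNP, and the highest of these lay inside the MGN range, with a log2 difference of -1.52 ± 0.43 (limma adjusted p = 0.327, exact permutation p = 0.0571). Ifitm3 (chr7:141009586-141010770, minus strand) had 2615, 2858, 1884 and 2293 in MGN and 2231, 1440, 1365 and 1289 in MGNP. Only MGNP replicate 1 reached the MGN range, and the log2 difference was -0.63 ± 0.21 (limma adjusted p = 0.354, exact permutation p = 0.0571).

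**Figure D3:**
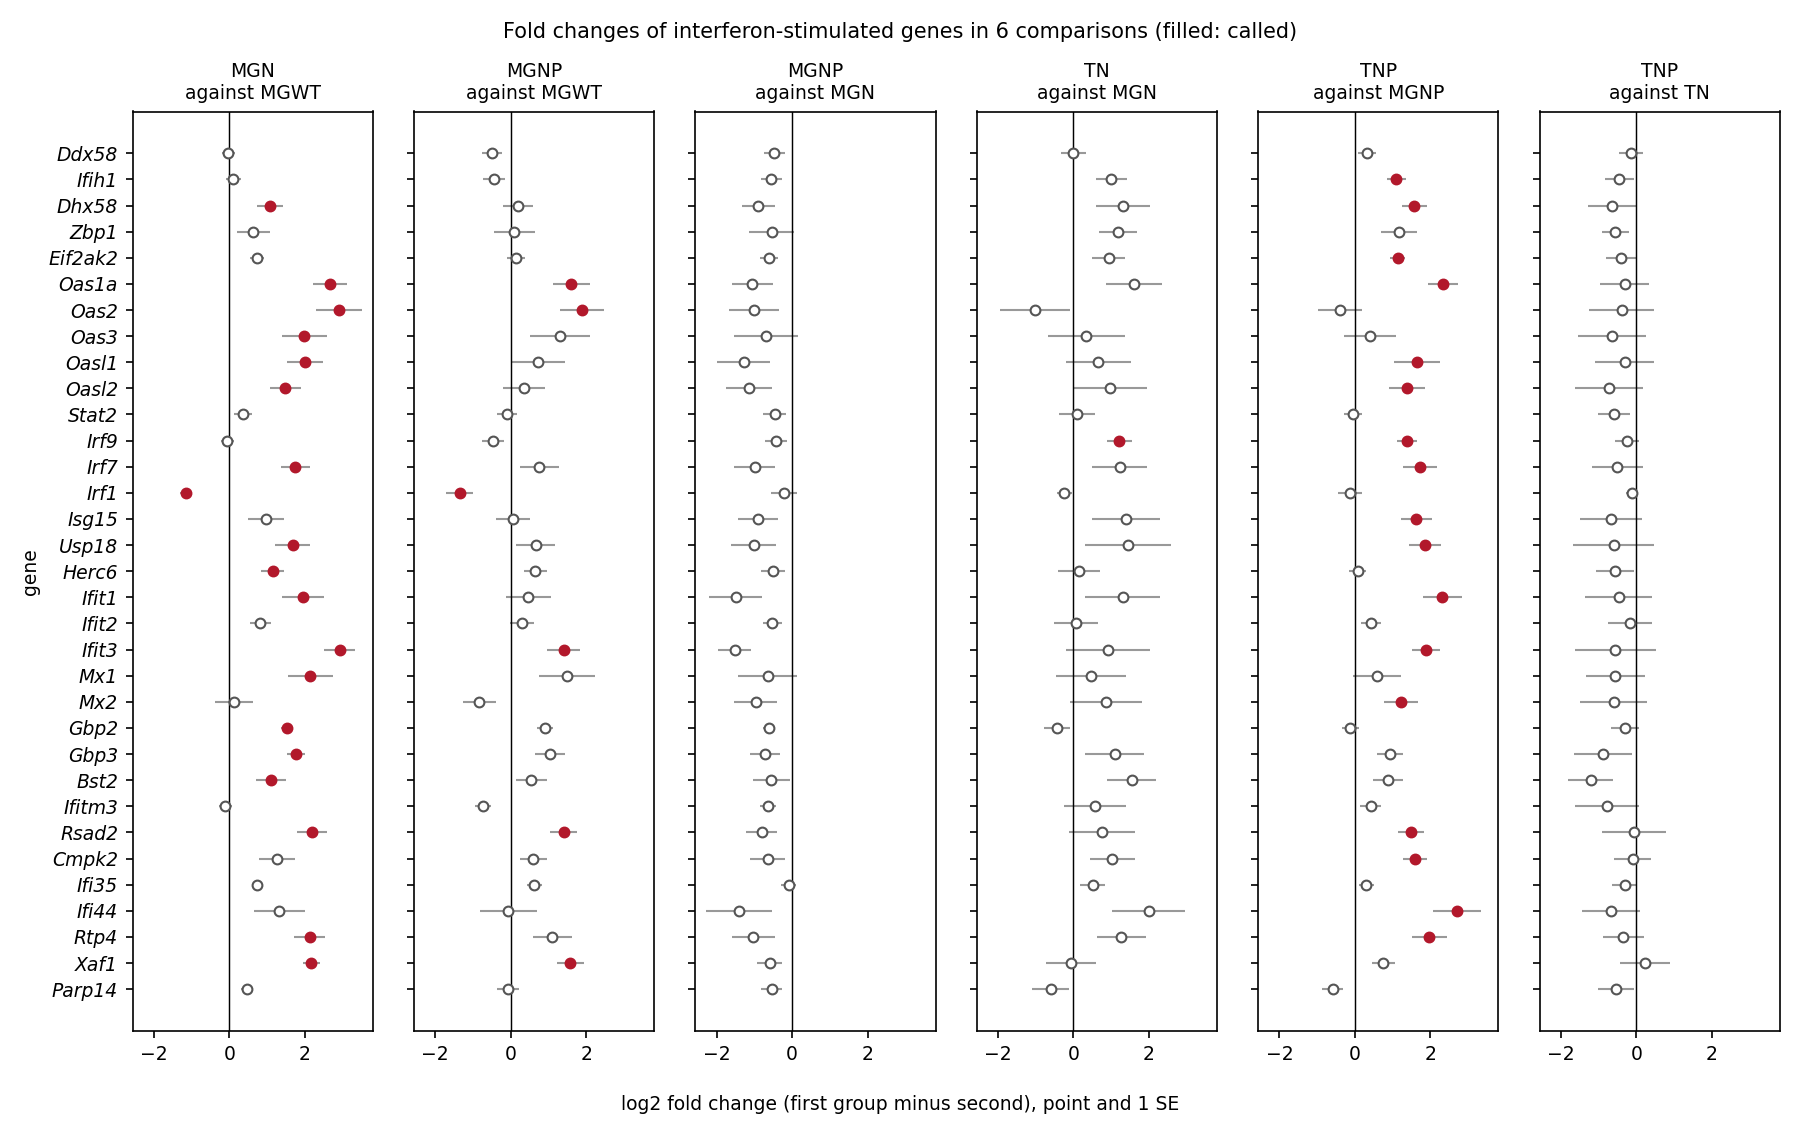
Log2 fold change of each of the 33 genes in 6 comparisons, as the difference of group means of log2(normalized count + 1) with 1 SE to either side; filled points were called. Filled points are 19 in MGN against MGWT, 6 in MGNP against MGWT, 1 in TN against MGN and 17 in TNP against MGNP, and the points of MGNP against MGN all lie below 0.

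Within the gland groups, the same animals held the high values of most members. The median SD of log2 values over the 33 genes was 0.74 in MGN and 0.72 in MGNP, against 0.28 and 0.40 over all genes with a group mean of at least 10, and 0.25 in MGWT. MGN replicate 1, the MMTV-neu;Fsp-Cre gland, had the highest MGN value for 27 genes, and replicates 1 and 4 held the top values for 28 genes, beside 17.5% of all genes. MGNP replicate 1 had the highest value of its group for 32 genes, beside 22.1% of all genes. Leukocyte markers were highest in some of the same glands. The mean log2 value of Ptprc, Coro1a, Laptm5 and Cd53 was 11.27, 10.92, 10.66 and 12.08 in MGN replicates 1 to 4, so replicates 1 and 4 were the top pair, as they were for B cell markers (9.79, 3.73, 7.98 and 10.28) and NK cell markers (5.8, 3.75, 4.64 and 6.9). For T cell markers (7.32, 6.94, 7.4 and 9.24) the top pair was replicates 3 and 4. Replicate 4, and not replicate 1, was the highest in each of these lists, while macrophage markers were highest in replicate 2 (11.82). In MGNP the leukocyte means were 12.45, 9.53, 12.41 and 10.17 and those of plasmacytoid dendritic cells 8.85, 5.35, 7.51 and 4.81, with replicate 1 highest in both, while T cell and B cell markers were highest in replicate 3 (9.63 and 11.14). The means of the 33 genes were 10.03, 9.14, 8.61 and 9.76 in MGN and 9.65, 8.32, 8.49 and 7.98 in MGNP. The part of leukocytes in the spread of the 33 genes was not tested.

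The third question was how tumors differed from glands of the same fibroblast p53 status. TN tumors were MMTV-neu;Fsp-Cre, and of the MGN glands only replicate 1 was. Cre and the unconverted allele thus also differ between TN and most of MGN, and their part was not tested. In TN, 27 of the 33 genes were above MGN on average, and the transcription factor gene Irf9 alone was called. The 4 tumors spread widely, with a median SD of 1.56 on the log2 scale over the 33 genes, against 0.74 in MGN. This count of 1 higher and none lower stood beside 12.8% and 22.3% of all 17950 genes tested, and the median log2 fold change was 0.91, against -0.05 over all genes. Irf9 (chr14:55603571-55610030, plus strand), a DNA-binding partner of STAT2, had 1762, 1234, 1036 and 1525 normalized counts in MGN and 2171, 4868, 2022 and 4651 in TN. It was the member whose groups did not overlap, beside 22.7% of all genes higher and 26.4% lower without overlap, with a log2 fold change of 1.21 ± 0.33 (limma adjusted p = 0.0144, exact permutation p = 0.0286), and it was called in all 8 fits that left out a sample. A neighboring gene on the same strand, Rnf31, overlaps Irf9 and reached 1555 normalized counts, so reads of the overlap could be counted for either.

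The next smallest p-values belonged to a sensor and a membrane protein. Ifih1 (chr2:62595798-62646255, minus strand), which encodes the long double-stranded RNA sensor MDA5, had 2476, 1526, 1543 and 2150 normalized counts in MGN and 1994, 5211, 2546 and 7501 in TN. TN replicate 1 lay within the MGN range, and the log2 difference of 1.0 ± 0.41 did not pass (limma adjusted p = 0.0679, exact permutation p = 0.114). Bst2 (chr8:71534255-71537456, minus strand) had 574, 518, 289 and 1096 in MGN and 482, 3185, 1275 and 3467 in TN, and its log2 difference of 1.54 ± 0.65 also did not pass (limma adjusted p = 0.0751, exact permutation p = 0.143). The count moved with the libraries and with the model. It was 13 without TN replicate 1, in which the mean of the 33 genes was lowest, and 2 without MGN replicate 1. With all 8 libraries, DESeq2 on the recovered reads called 14 genes and edgeR 3, as did the fit of all 5 groups. The shares of all genes called in these fits, and in those without a library, are not given here. In the same comparison 6 of 8 luminal epithelium markers were called higher, and 8 of 8 adipocyte, 6 of 6 endothelium, 6 of 6 basal epithelium, 8 of 8 T cell and 4 of 4 leukocyte markers were called lower, and their part in the result was not tested.

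With mutant fibroblast p53 the difference between tumor and gland was called for 17 of the 33 genes, all higher in TNP than in MGNP. Of all 17880 genes tested, 14.7% were called higher and 24.0% lower. The median log2 fold change was 1.14, against -0.07 over all genes, and 13 genes were higher without overlap (25.2% of all genes) and 0 lower (27.4%). Called genes lay in every role, with 4 of 6 effectors of double-stranded RNA (Eif2ak2, Oas1a, Oasl1 and Oasl2), 2 of 4 sensors (Ifih1 by 1.10 and Dhx58 by 1.57), 2 of 4 transcription factors (Irf9 by 1.38 and Irf7 by 1.72), 2 of 3 of the ISG15 system (Isg15 by 1.63 and Usp18 by 1.86), 2 of 3 IFIT genes, Mx2 of the 4 GTPases, Rsad2 and Cmpk2 of the membrane and nucleotide enzymes, and Ifi44 and Rtp4.

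Ifi44 (chr3:151730922-151749960, minus strand), an interferon-induced gene of little known function, had 884, 118, 117 and 103 normalized counts in MGNP and 1225, 1015, 1342 and 1437 in TNP. The lowest tumor was above the highest gland, and the log2 fold change was 2.71 ± 0.63 (limma adjusted p = 0.0065, exact permutation p = 0.0286). Oas1a had 971, 845, 878 and 672 in TNP, against at most 406 in MGNP, and rose by 2.33 ± 0.40 (limma adjusted p = 0.0014, exact permutation p = 0.0286). Ifit1 (chr19:34640871-34650009, plus strand) had 449, 138, 66.1 and 107 in MGNP and 805, 834, 568 and 747 in TNP, without overlap, and rose by 2.32 ± 0.51 (limma adjusted p = 0.005, exact permutation p = 0.0286).

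Of the 17 genes, 13 were called in each of the 8 fits that left out a sample, and Oasl1 and Oasl2 were each lost in 7 of the 8. TNP replicates 1 and 2 may come from 1 mouse, and when they were averaged Oasl1, Oasl2 and Mx2 were no longer called. With the muscle marker mean as a covariate 4 genes were called, and with all 5 groups in a single fit 10. The muscle mean was 3.49 to 8.57 in TNP and 8.94 to 17.02 in MGNP, without overlap, so it cannot be told apart from group. Markers of most tissue components moved with this comparison. In TNP, 13 of 14 muscle markers were called lower, with a summed normalized count of 395 to 7540, as were 8 of 8 adipocyte, 6 of 6 endothelium, 6 of 6 B cell, 7 of 8 T cell and 5 of 6 basal epithelium markers, and 7 of 8 luminal epithelium markers were called higher. Their part in the result was not tested. Gbp2 and Oas2, which were not called, were at -0.12 and -0.40.

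**Figure D4:**
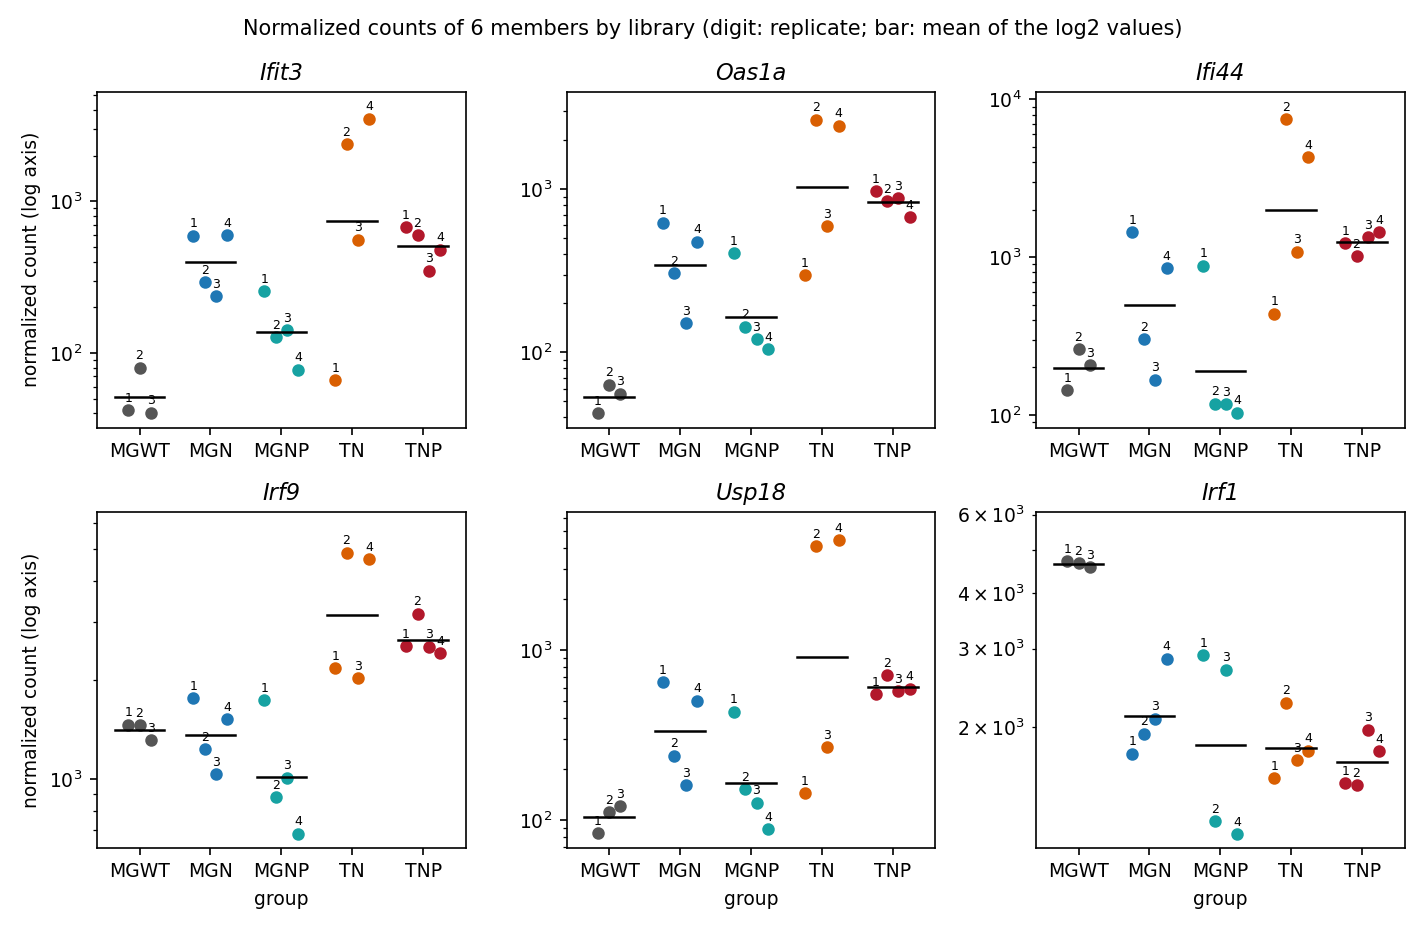
Normalized counts on a log axis for Ifit3, Oas1a, Ifi44, Irf9, Usp18 and Irf1 in each library, with the replicate number beside each point and a bar at the mean of the log2 values of a group. TN replicates 2 and 4 lie above the 4 TNP tumors in Usp18 (4110 and 4430 against 552 to 712) and replicates 1 and 3 below them, while Irf1 is highest in the 3 MGWT glands.

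Between the tumor genotypes no member passed the test, and 0 of the 33 had an unadjusted p-value under 0.05, a level that 7.27% of all 16638 genes tested reached. By limma 0.0361% of all genes were called higher in TNP and 0.00601% lower, and neither edgeR nor DESeq2 called any of the 33. The median log2 difference of the 33 genes was -0.50, with Xaf1 the single gene above 0 (0.23). All 4 TNP and all 4 TN values overlapped for every gene, whereas 2.64% of all genes were higher and 1.57% lower without overlap.

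Bst2 had 482, 3185, 1275 and 3467 normalized counts in TN and 987, 750, 461 and 684 in TNP, and its log2 difference of -1.21 ± 0.59 had a limma 95% interval of -2.54 to 0.11 (adjusted p = 0.695, exact permutation p = 0.171). Zbp1 (chr2:173206612-173218923, minus strand), a sensor of Z-form nucleic acids that can start cell death, had 382, 967, 489 and 1269 in TN and 508, 360, 559 and 491 in TNP, with a log2 difference of -0.55 ± 0.37 and an interval of -1.39 to 0.29 (limma adjusted p = 0.766, exact permutation p = 0.314). Stat2 (chr10:128270559-128292849, plus strand) had 679, 2271, 1013 and 3030 in TN and 1095, 960, 1061 and 830 in TNP, with a log2 difference of -0.59 ± 0.43 and an interval of -1.56 to 0.39 (limma adjusted p = 0.775, exact permutation p = 0.371). In all 3 genes the higher TN values were those of replicates 2 and 4.

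The tumor groups also differed in spread. The SD of log2 values was larger in TN than in TNP for 33 of 33 genes, as it was for 72.4% of all genes tested, with a median over the members of 1.56 in TN and 0.27 in TNP, and 0.43 and 0.28 over all genes. All 4 TNP values lay inside the TN range for 30 genes, beside 36.9% of all genes. TN replicates 2 and 4 held the top values of the group for 33 of 33 genes, which was so for 23.6% of the 16888 genes with a TN mean of at least 10. These counts describe the tumors and carry no test, since the 33 genes are not independent of each other.

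The widest ratio within TN was that of Ifit3, with 65.9, 2382, 559 and 3508 normalized counts, 53.2-fold from lowest to highest, while in TNP it had 677, 601, 349 and 481, a ratio of 1.94. Usp18, which encodes a negative regulator of interferon receptor signaling, had 145, 4110, 269 and 4430 in TN, 30.5-fold from lowest to highest, and 552, 712, 575 and 596 in TNP, a ratio of 1.29. Ifitm3 had 585, 16340, 3314 and 4953 in TN and 1243, 1987, 2852 and 2570 in TNP. Irf1 was the member with the smallest SD in TN, 0.24, with 1533, 2266, 1681 and 1768 normalized counts. Its highest value was 1.48-fold its lowest.

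By mean log2 value, TN replicates 2 and 4 were not the top pair in any list of leukocyte markers. The mean log2 value of the 4 leukocyte markers was 9.29, 9.46, 10.06 and 8.90 in TN replicates 1 to 4, and that of 8 macrophage markers was 10.16, 10.06, 10.86 and 9.80. For dendritic cell markers these means were 5.6, 4.68, 6.32 and 5.46, and for T cells 4.52, 3.13, 5.4 and 3.42. For plasmacytoid dendritic cells they were 2.69, 2.36, 2.43 and 3.27, with replicate 4 the highest. They were 3.27, 2.81, 3.45 and 3.44 for NK cells and 1.89, 1.2, 5.83 and 2.26 for B cells. TN replicate 2 had the lowest dendritic and T cell means of TN, and replicate 4 the lowest leukocyte and macrophage means. Fibroblast markers were lower in replicates 2 and 4, at 8.77 and 9.24, than in replicates 1 and 3, at 9.91 and 11.61, and adipocyte markers at 3.11 and 6.76 against 7.78 and 8.95. The means of 8 luminal epithelium markers were 12.02, 12.51, 12.17 and 12.12. Their summed normalized counts were 95460, 172704, 90948 and 113898, so by sum replicates 2 and 4 were the highest, as for the members. The part of the leukocyte, fibroblast, adipocyte and luminal epithelium differences in the result was not tested.

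**Figure D5:**
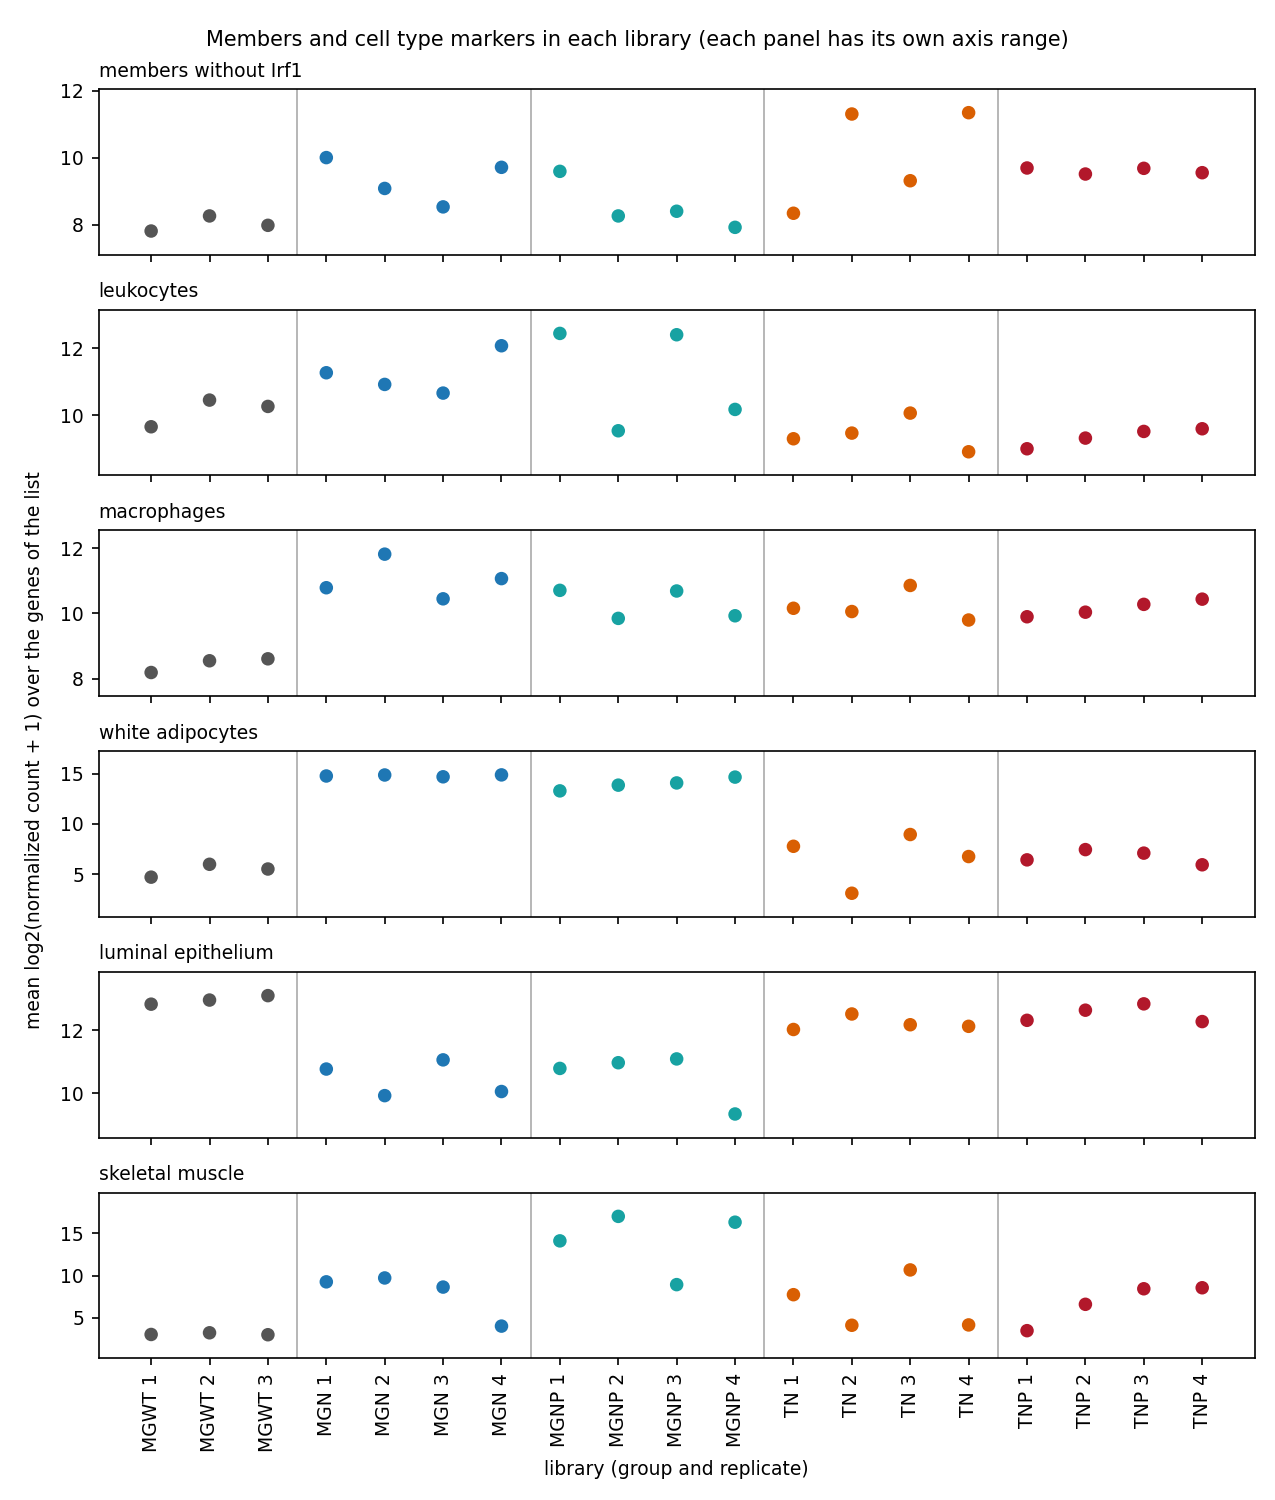
Mean log2(normalized count + 1) per library over the 32 members other than Irf1 and over 5 lists of cell type markers, with a separate axis range in each panel. TN replicates 2 and 4 are highest for the members (11.30 and 11.34) but not for leukocyte or macrophage markers, and the markers of muscle are highest in MGNP replicates 2 and 4.

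Whether the difference between tumor and gland depended on the fibroblast genotype was tested as an interaction over the 16 samples without MGWT. None of the 33 genes passed, 0 had an unadjusted p-value under 0.05, and edgeR and DESeq2 called none, beside 0% of all 19367 genes tested called in either direction by limma. The median interaction was 0.30 on the log2 scale. The smallest p-values were those of Xaf1 (0.81 ± 0.78, limma adjusted p = 0.868, 95% interval -0.86 to 2.48), Oasl1 (0.98 ± 1.13, limma adjusted p = 0.891, interval -1.43 to 3.39) and Ifit1 (1.02 ± 1.21, limma adjusted p = 0.895, interval -1.56 to 3.61). These intervals include more than a 4-fold difference of effect, so the 17 calls in TNP and the single call in TN are not shown to differ.

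Genes upstream of the set were examined by lists. Of 21 interferon ligand genes, 9 had no read in any library and 18 had at most 3 reads in every library, which was taken as the floor of detection. The ligand Ifnb1, the type I interferon of most cell types, had 1, 8, 3 and 8 reads in TN replicates 1 to 4, 0 to 4 in TNP, 0 to 3 in MGN, 0 in all 4 MGNP glands and 3 to 15 in the deeper MGWT libraries. Its highest tumor counts were those of replicates 2 and 4, but at this depth such counts do not separate the tumors. Ifng, the type II ligand, was called lower in MGN and MGNP than in MGWT, with 21.0 to 25.3 normalized counts in MGWT, 0 to 6.57 in MGN and 6.46 to 14.3 in MGNP. In reads it had 43 to 51 in the deeper MGWT libraries, 0 to 7 in MGN and 5 to 15 in MGNP. Ifng passed the filter on low counts in both comparisons only because it was high in MGWT, so these calls are no separate support.

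The receptor chains that bind type I interferon are Ifnar1 and Ifnar2. Ifnar1 had 1900 to 2099 normalized counts in MGWT, 2075 to 2625 in MGN, 1534 to 2423 in MGNP, 1897 to 2687 in TN and 1716 to 1973 in TNP. Neither it nor Ifnar2 was called in any comparison. Ifngr1, which binds interferon-gamma, was lower in tumors than in their glands, by 1.67 in TN against MGN and 1.54 in TNP against MGNP on the log2 scale (limma adjusted p = 0.000585 and 0.000275). It had 1798 to 2431 normalized counts in MGWT, 3814 to 5001 in MGN and 3122 to 5285 in MGNP. In the tumors it had 986 to 2044 in TN and 1242 to 1762 in TNP, so the glands of tumor-bearing mice were the high groups. Ifnlr1, the specific chain of the type III receptor and a gene of epithelium, fell in MGN (-2.50) and MGNP (-2.24) against MGWT and rose in the tumors (1.33 and 1.47 against their glands). Of the 8 luminal epithelium markers, 8 were called lower in each gland group against MGWT, and 6 and 7 were called higher and 1 lower in TN and TNP against their glands.

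Stat3, of cytokine signaling, was lower in both gland groups than in MGWT (-1.41 and -1.49). The tumors lay above their glands, with 10383 to 13681 normalized counts in TN against 5165 to 6480 in MGN, and 9849 to 15678 in TNP against 4046 to 6602 in MGNP. Among 7 feedback genes tested, Socs3, a suppressor of cytokine signaling, gave the largest change in MGN against MGWT, with 24061, 27142 and 30711 normalized counts in MGWT against 329 to 392 in MGN, and a log2 difference of -6.20 ± 0.12 (limma adjusted p = 1.07e-07). Trex1 was listed at 0 in every library. Adar, the RNA editing enzyme gene with an interferon-inducible promoter, had 1580, 6891, 2967 and 6138 normalized counts in TN.

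Among 16 sensing and adaptor genes, 3 were called higher and 1 lower in MGN against MGWT, beside 19.1% and 17.9% of all genes. The endosomal RNA receptor genes Tlr7 and Tlr8 were up by 2.53 and 3.28. In both tumor groups 1 was called higher and 4 lower than in the gland, beside 12.8% and 22.3% of all genes in TN and 14.7% and 24.0% in TNP. All these counts were near the shares over all genes or below them. The gene called higher in the tumors was Tlr3, the endosomal receptor for double-stranded RNA, by 1.49 in TN and 1.15 in TNP, and Tlr7 and Tlr8 were among those lower.

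A list of other interferon-induced genes was examined beside the members. Of 20 tested among guanylate-binding proteins, immunity-related GTPases, chemokines and the antigen presentation regulator Ciita, 0 were called higher and 8 lower in TN against MGN, and 2 higher and 9 lower in TNP against MGNP, with median log2 fold changes of -1.32 and -1.48. Of all genes, 12.8% were called higher and 22.3% lower in TN against MGN, and 14.7% and 24.0% in TNP against MGNP. Gbp4, Gbp11, Cxcl9 and Ciita fell in both, Gbp11 by 5.3 and 4.2, Gbp4 by 2.86 and 2.8 and Cxcl9 by 1.93 and 2.52 on the log2 scale. Gbp11 had been called higher in MGN against MGWT, by 5.35, from at most 3.62 normalized counts in MGWT to 62.4, 80.5, 161 and 174 in MGN. It had 1.01 to 3.5 normalized counts in TN and 0 to 2.5 in TNP. Gbp11 thus passed the filter on low counts in these comparisons only through MGN or MGNP, where it was high. Its calls, which are part of the counts above, follow in part from that filter and are no separate support. The 2 called higher in TNP were the GTPase genes Irgm1 (1.31) and Iigp1 (1.79). Leukocyte genes were lower in the same comparisons, with 8 of 8 T cell markers called lower in TN and 7 of 8 in TNP, and their part in these falls was not tested.

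Reads of some members may be shared with close copies or overlapping genes. The copies Ifit3b and Oas1g, of Ifit3 and Oas1a, were also highest in TN replicates 2 and 4 within TN, with 43.2, 925, 193 and 1384 normalized counts of Ifit3b in TN, and of Oas1g 1067 and 927 in TN replicates 2 and 4 and at most 158 in the other two, so how the counting split reads between them bears on these values. Irf7 overlaps Phrf1 on the opposite strand, which reached 3249 normalized counts, and Rtp4 overlaps Masp1, which reached 780. Whether the counting used strand is not given in the sources used here.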

How the data were processed

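RNA was extracted from 19 samples (4 TN and 4 TNP tumors, and 4 MGN, 4 MGNP and 3 MGWT glands). The labels name Qiagen extraction and a stranded total RNA kit, and the methods of the study name TRIzol, RNeasy columns and an mRNA kit. Paired reads were aligned by the authors to GRCm38 with TopHat2 (version 2.1.1 per the labels) and Bowtie2, and scaled with DESeq2. How reads were counted on genes, with which annotation and whether by strand is not given in the sources used here. Their deposited table holds, as signal values, normalized counts of 46078 genes in 19 columns, all used. Values of each library are whole multiples of a step, and reads were recovered by dividing by it, with 100% of values whole within 0.05 reads in every library. In TN replicate 3 the step was near 1, so its values resemble raw reads. A gene with at most 3 reads was taken to be at the floor, which covers counting error only.

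Symbols, positions and exon lengths came from GENCODE vM21, which matched 97.97% of identifiers, and Herc5, of the list of close copies, was not matched. Log2(normalized count + 1) was modelled in limma (3.58.1, under R 4.3.3) by lmFit and then eBayes with a trend, using only the groups compared. Genes needed 10 or more normalized counts in a number of samples no lower than the size of the smaller group. P-values were adjusted by the Benjamini-Hochberg method over all genes, and a call required a value below 0.05 together with a difference of 2-fold or more. Confidence intervals use the moderated SE and its degrees of freedom. For single genes, mean log2 values were also compared by exact permutation, two-sided. The interaction was (TNP minus MGNP) minus (TN minus MGN). The fit was tested on simulated data. Alternatives were pseudocounts of 0.5 and 5, no filter, a filter at a mean of 50, TMM scaling, recovered reads in edgeR (4.0.16) or DESeq2 (1.42.0), no fold threshold, the 5 groups fitted together, a replicate block, each sample left out, TNP replicates 1 and 2 averaged, and the muscle marker mean as a covariate.

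The members and lists were chosen with earlier results of these data known. Of the lists, 1 gene is not reported here. In full are given the 3 called members with the largest change in each comparison, or, where fewer were called, these and those of smallest p-value up to 3. Upstream genes named beyond the 4 largest called changes of a comparison, among them Adar, Ifnar1 and Ifnb1, and Usp18, Ifit3, Ifitm3 and Irf1 within TN, were chosen after their values were seen. For every pair of replicates, 51.7% to 78.2% of the genes examined differed by more than counting noise, the least in TNP replicates 1 and 2. Where nothing says that they came from separate mice, p-values measure only the spread between these samples.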

Additional observations from a re-analysis of the deposited data

Results flagged for a closer look

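In the 4 groups of 4 samples, 132 combinations of gene and group were examined for a single sample far from the others (Dixon's gap ratio against its 95% critical value for 4 samples), and 4 were past it (3.03%). Chance alone gives about 1 in 20. In MGNP, replicate 1 stood high for Ifi44 (ratio 0.937, 884 normalized counts against 103 to 118 in the other 3 glands), for Xaf1 (0.901, 936 against 356 to 392) and for Eif2ak2 (0.892, 1552 against 816 to 875). In MGN, replicate 3 stood low for Oas2 (0.833, 154 against 688 to 927). No interaction of tissue and genotype passed the test for any of the 33 genes.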

How the results depend on the processing

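Of 4587 member results under the alternatives, 4412 kept their direction and side of the threshold, 67 passed it only under the alternative, 107 no longer passed it, and 1 reversed: Irf1 in MGNP against MGWT, at 0.30 with the muscle marker mean as a covariate. Fitting all 5 groups together gave 9 members higher in MGN against MGWT (18 in the reported fit), 1 in MGNP against MGWT (5), 3 in TN against MGN (1) and 10 in TNP against MGNP (17). With the muscle covariate, 1 was higher and 0 lower in MGNP against MGWT and 4 were higher in TNP against MGNP. In both comparisons the muscle means of the groups did not overlap, so this covariate cannot be told apart from group. DESeq2 gave 9 higher in MGNP against MGWT, 1 lower in MGNP against MGN and 14 higher in TN against MGN, and edgeR 3 in TN against MGN. Without a fold threshold, 2 were lower in MGNP against MGWT. The shares of all genes called are given only for the reported fit, and not for the alternatives or for fits with a sample left out. Whether the members differ from all genes in those fits is therefore not shown. The cause of these shifts was not tested.

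With a sample left out, members called higher ranged from 12 to 21 in MGN against MGWT, from 1 to 7 in MGNP against MGWT, from 1 to 13 in TN against MGN and from 13 to 21 in TNP against MGNP, and members called lower in MGNP against MGWT from 0 to 2. In MGNP against MGN, TNP against TN and the interaction, 0 were called in each such fit. With the replicate block, 15 were higher and 1 lower in MGN against MGWT, 4 and 1 in MGNP against MGWT, 2 higher in TN against MGN and 18 in TNP against MGNP. The numbers did not pair the samples: same-numbered samples had deviations correlated at -0.28 to 0.319. For the 18 of 21 ligand genes with at most 3 reads in every library, changes were not detectable at this depth.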
